A study of Mus musculus with 12 samples.

Results

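The miR-101 family was represented on these mouse miRNA arrays by 3 of 696 names, mmu-miR-101a-5p, mmu-miR-101a-3p and mmu-miR-101b-3p, all among the 443 names detected on at least 1 array. They were taken as all names of the array design that begin with miR-101a or miR-101b. The family was chosen by measured values, since miR-101a-5p had been picked out earlier from the difference between the myopic and the control retina. The values of all 3 names in that comparison are therefore given as a description without a test.

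The retina and the sclera of C57BL/6J mice were profiled at 34 days of age. A diffuser, which deprives the retina of form vision, had covered the myopic eyes for 10 days from postnatal day 24, and the untreated fellow eyes were the controls. Each of the 4 groups (control retina, myopic retina, control sclera and myopic sclera) had 3 arrays, and each array was hybridized with RNA from a pool of 3 eyes. Samples of the same number came from the same animals according to their labels and lay on the same slide, and each group held the same place on every slide, so that group and place on the slide cannot be told apart.

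A miRNA hairpin is cut into a short duplex, of which a strand is loaded into Argonaute as the guide while the other, the passenger, is mostly degraded. The guide finds its target mRNAs mainly through its seed near the 5′ end. In the miR-101 family the 3p arm is the usual guide, well known for repressing the histone methyltransferase Ezh2, and the 5p arm is the usual passenger.

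The mature sequences are shown because the probes of the family differ in the bases they read. They are from RefSeq (GRCm38.p6), with the seed (bases 2 to 8) in capitals. All 3 names were found in that table.
mmu-miR-101a-5p: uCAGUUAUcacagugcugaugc
mmu-miR-101a-3p: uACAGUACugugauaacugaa
mmu-miR-101b-3p: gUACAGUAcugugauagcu

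Both arms of miR-101a come from the minus strand of chromosome 4, the 5p arm from chr4:101346993-101347014 and the 3p arm from chr4:101346957-101346977. MiR-101b-3p comes from the plus strand at chr19:29135338-29135356. In the gene table of the same assembly the miR-101a gene overlapped the long non-coding RNA gene E130102H24Rik and lay between the protein-coding genes Jak1 and Ak4. The miR-101b gene lay within Rcl1, and its nearest other protein-coding genes were Ak3 and Jak2. Whether the hairpins fall in exons or introns of these genes was not analysed here. The array annotation uses the older build mm9, and its coordinates are not given.

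The 3 seeds differ in the RefSeq table. MiR-101b-3p is listed as starting 1 base earlier than miR-101a-3p, so that the seed letters of miR-101a-3p stand from base 3 of miR-101b-3p. Over the 18 bases that align without a gap, both 3p arms differ by A16G, counted from the 5′ end of miR-101a-3p. MiR-101c, which has no probes on these arrays, lies wholly within the miR-101a-3p sequence over its 19 bases and cannot be told apart from it. The 5p arm of miR-101b also has no probes on the arrays. Outside the family, bases 2 to 7 of miR-101a-3p are shared by mmu-miR-144-3p, which is on the arrays, and bases 2 to 7 of miR-101b-3p by mmu-miR-582-5p, which is not.
mmu-miR-144-3p: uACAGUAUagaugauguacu

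Each name is read by short DNA probes printed in 5 or 10 spots. MiR-101a-5p has 4 probes of 13 to 16 nucleotides, which pair with its 3′ part and at most with bases 7 to 22. MiR-101a-3p has 2 probes of 20 and 21 nucleotides, and miR-101b-3p has 2 probes of 17 and 18 nucleotides, which reach 3 bases past the 3′ end of the RefSeq sequence. The longest probe of each name is printed here with the bases in capitals that do not pair with the other hairpin of the family.
miR-101a-5p probe: gcatcAgCacTGtgat
miR-101a-3p probe: ttcagTtatcacagtactgta
miR-101b-3p probe: ttcagCtatcacagtact

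The 5p probe has 4 such bases, and the probe of each 3p arm has 1. How far the probes of a 3p arm also bind the other 3p arm was not tested. The level of a miR-101 name is therefore not set against that of another, and only their changes between groups are compared.

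The arrays report for each name a total gene signal, which sums background-subtracted intensity over its detected probes. A probe counts as detected when its signal is over 3 times its error, and the files list 0.1 where a name has no detected probe. For the passenger arm miR-101a-5p the total gene signal was 66.2, 11.1 and 3.63 on control retina arrays 1, 2 and 3. It was 115, 162 and 67.5 on the corresponding myopic retina arrays. All 6 sclera arrays listed it at 0.1, without any detected probe. The passenger arm was thus detected on 6 of 6 retina arrays and on 0 of 6 sclera arrays, and control retina 1 was nearly as bright as myopic retina 3 while control retina 2 and 3 were far dimmer.

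The guide arm miR-101a-3p was detected on all 12 arrays. Its total gene signal was 946, 1096 and 1235 on arrays 1, 2 and 3 of the control retina, and the myopic retina gave 1036, 1402 and 1035. Control sclera gave 449, 518 and 86.1, while myopic sclera gave 409, 370.3 and 270.1. The retina arrays of both groups overlapped, every sclera array was below every retina array, and control sclera 3 was far below the other sclera arrays.

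MiR-101b-3p, the guide of the second gene, was also detected on all 12 arrays. Control retina gave total gene signals of 190.0, 228 and 252, and myopic retina gave 221, 302 and 204. Control sclera gave 41.7, 51.4 and 5.84, while myopic sclera gave 36.9, 36.3 and 27.4. It repeated the pattern of miR-101a-3p, with overlapping retina groups and the lowest value on control sclera 3, where 1 of its 2 probes was detected.

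**Figure D1:**
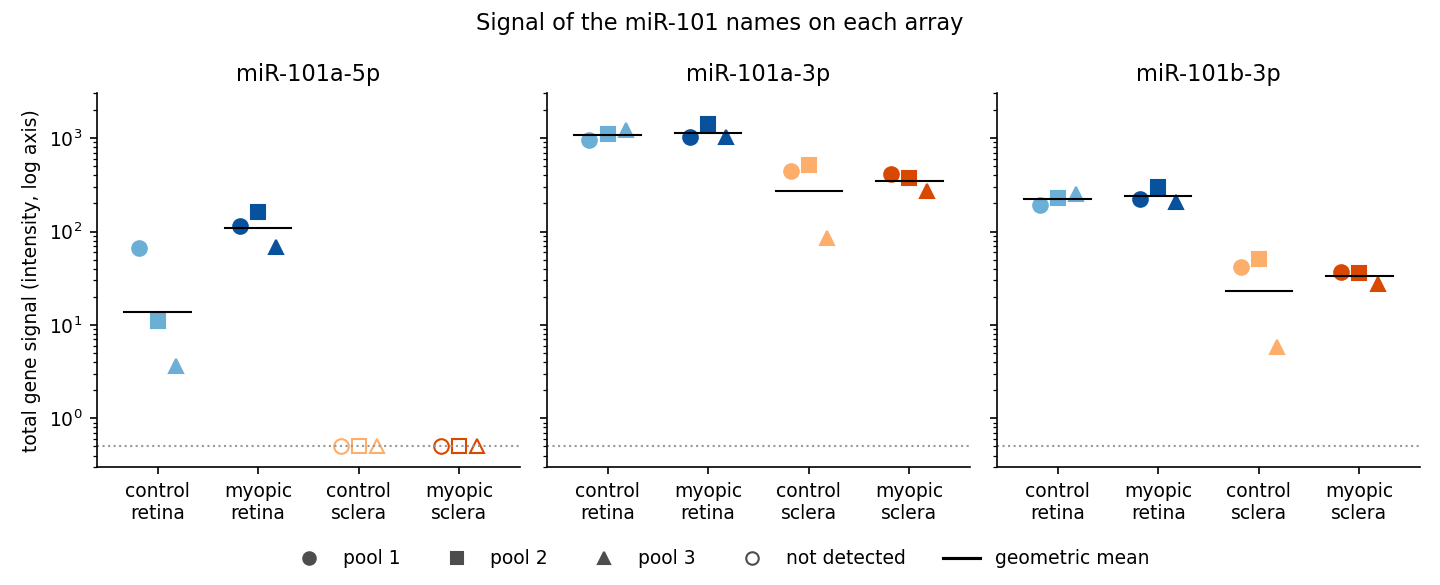
Total gene signal (intensity, log axis) of the 3 miR-101 names on each of the 12 arrays, by group, with symbols for pool number and a line at the geometric mean. Open symbols on the dotted line at 0.5 mark arrays without detection, which are all 6 sclera arrays for miR-101a-5p, while both 3p names were detected everywhere and were lowest on control sclera 3.

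Control sclera 3 was dim as a whole. The 75th percentile of total gene signal over the 696 names was 22.5 on this array, against 57.0 and 65.1 on the other control sclera arrays and 34.6 to 45.1 on the myopic sclera arrays. It also had the fewest detected names, 274, where the other sclera arrays had 290 to 317. Control retina arrays 1, 2 and 3 had 372, 362 and 353 detected names and the myopic retina arrays 399, 401 and 376. No spot was saturated, and precision is limited by the number of arrays.

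The 4 probes of miR-101a-5p were read separately as the mean processed signal of their 5 spots, which is background-subtracted and can be negative. On control retina 1 they gave 41.4, 43.7, 54.8 and 58.5 from the shortest to the longest. On control retina 2 they gave 5.47, 8.03, 13.7 and 19.7, and on control retina 3 they gave 1.12, 3.27, 3.44 and 10.97. All 4 probes were detected on control retina 1, 2 on control retina 2 and 1 on control retina 3.

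On the myopic retina arrays all 4 probes were detected. The shortest gave 72.3, 100.5 and 41.0 and the longest 94.8, 139 and 56.8 on arrays 1, 2 and 3. The longest probe was 1.31 to 1.39 times as bright as the shortest on the myopic retina arrays and 1.41 times on control retina 1. On control retina 2 and 3 the shortest probe was not detected, and no ratio is given. The total gene signal leaves out undetected probes. On control retina 3 it was 58.3% of the sum over all 4 probes, on control retina 2 it was 71.2%, and on the other retina arrays it equalled the sum.

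On the sclera arrays the probe means of miR-101a-5p lay between -6.90 and 0.783. The 2 probes of miR-101a-3p kept a nearly fixed ratio on all 12 arrays, with the longer 1.18 to 1.26 times as bright as the shorter. For miR-101b-3p this ratio was 3.00 to 3.77 on the arrays where both probes were detected, which leaves out control sclera 3.

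**Figure D2:**
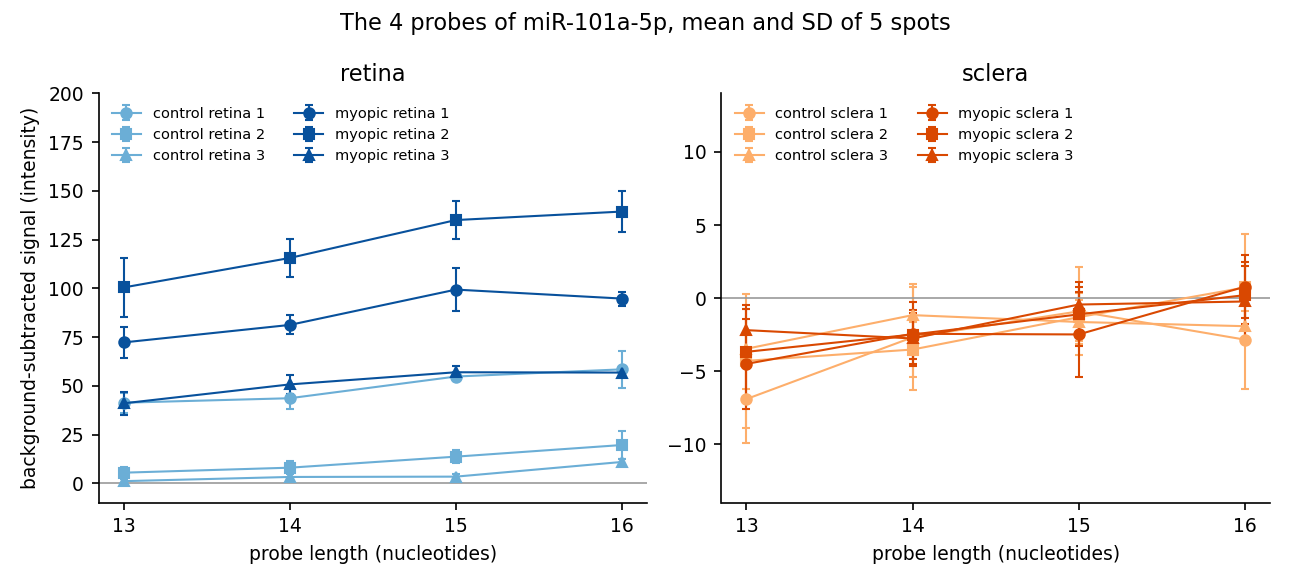
Background-subtracted signal (intensity) of the 4 miR-101a-5p probes by probe length, as the mean and SD of 5 spots, with a line for each retina array on the left and each sclera array on the right. The 3 myopic retina arrays and control retina 1 lie above control retina 2 and 3 for every probe, and the sclera arrays scatter about 0 on an axis of its own scale.

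For comparisons between groups, total gene signals under 0.5 were set to 0.5, quantile normalized over the 12 arrays and transformed to log2, so that an undetected miRNA stands at -1. On this scale miR-101a-5p was at 3.69 ± 1.56 (SD, n = 3) in the control retina and 5.84 ± 0.33 (SD, n = 3) in the myopic retina. MiR-101a-3p was at 9.67 ± 0.19 (SD, n = 3) in the control retina, 9.66 ± 0.11 (SD, n = 3) in the myopic retina, 8.95 ± 0.66 (SD, n = 3) in the control sclera and 9.33 ± 0.13 (SD, n = 3) in the myopic sclera. MiR-101b-3p was at 7.36 ± 0.27, 7.06 ± 0.10, 5.95 ± 0.75 and 6.44 ± 0.07 (SD, n = 3) in the same order of groups. From high to low, the order of these means for both 3p names was control retina, myopic retina, myopic sclera and control sclera. Without normalization the myopic retina was above the control retina, by 0.08 for miR-101a-3p and 0.11 for miR-101b-3p. The myopic and control groups of a tissue overlapped for both names, whereas retina and sclera did not overlap in the control or in the myopic eyes, as was so for 261 (58.9%) and 348 (78.6%) of the 443 miRNAs.

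The log2 values that the authors deposited for the same arrays had the same order of groups in the retina. MiR-101a-5p stood at 5.13, 3.22 and 1.50 in the control retina, at 5.84, 5.84 and 5.23 in the myopic retina and at -1 on every sclera array. MiR-101a-3p had group means of 9.61 in the control and 9.58 in the myopic retina, and miR-101b-3p of 7.23 and 6.95. The deposited values of the 3p names differed from those computed here by at most 0.13 and 0.21, and those of miR-101a-5p by up to 0.72.

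Between the myopic and the control retina, the comparison on which miR-101a-5p was selected, limma called 1 of 443 miRNAs tested (0.226%). That miRNA was mmu-miR-145-5p, lower in the myopic retina, which was singled out after its values were seen. To be called, a miRNA had to change at least 2-fold with an adjusted p-value under 0.05. Without control retina 1 the number called was 122, and without myopic retina 3 it was 13. It was 0 with a floor at the lowest detected signal, processed spot signals, normexp background correction, only the 2 groups fitted or all probes summed. No test result is given for the 3 miR-101 names. The difference of miR-101a-5p was 2.15 on the log2 scale (standard error 0.62), higher in the myopic retina in 3 of 3 pairs of pools, by 0.69, 2.54 and 3.22 in pools 1, 2 and 3. The groups did not overlap, as was so for 64 of 443 miRNAs (14.4%) in either direction. All myopic values were above all control values for 23 of 443 (5.19%). The lowest myopic value of miR-101a-5p, 5.45, lay only slightly above its highest control value, 5.34. On its shortest and its longest probe, control retina 1 (41.4 and 58.5) was brighter than myopic retina 3 (41.0 and 56.8).

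For the guide arm of the same hairpin the difference was -0.01 (standard error 0.28), with 0.08, 0.00 and -0.11 in the 3 pairs. For miR-101b-3p it was -0.30 (standard error 0.32), lower in 3 of 3 pairs with quantile normalization, but 0.00 with the arrays scaled to a common 75th percentile and 0.11 without normalization. Without control retina 1 the difference of miR-101a-5p was 3.00, and without control retina 3 it was 1.41. With normexp background correction and an offset of 50 it was 0.22, still higher in the myopic retina.

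Within an array, the difference of the 5p minus the 3p value cancels what scales both sets of probes alike. It does not cancel quantile normalization, which is no such scaling. It was -4.12, -6.21 and -7.61 for control retina 1, 2 and 3 and -3.50, -3.67 and -4.28 on the myopic arrays. The mean change was 2.16, and myopic retina 3 was below control retina 1. It was 1.33 without control retina 3 and 3.12 without control retina 1. With the arrays scaled to the 75th percentile or without normalization it was 2.89, and with normexp it was 0.24. This describes an unequal change of both arms and gives no level of either arm relative to the other.

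The order of the 6 retina arrays by miR-101a-5p signal was the order of the arrays by number of detected names. Control retina 3 had 353 names and a signal of 3.63, control retina 2 had 362 and 11.1, control retina 1 had 372 and 66.2, myopic retina 3 had 376 and 67.5, myopic retina 1 had 399 and 115, and myopic retina 2 had 401 and 162. MiR-101a-3p did not follow this order on either scale. Its total gene signal was highest, 1402, on myopic retina 2, the array with the most detected names, and second highest, 1235, on control retina 3. Its highest normalized value, 9.84, was on control retina 3. The part of the number of detected names in the miR-101a-5p difference was not tested.

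The 5 miRNAs whose normalized values were most like those of miR-101a-5p over the 12 arrays were mmu-miR-467c-5p, mmu-miR-669b-5p, mmu-miR-669e-5p, mmu-miR-466h-5p and mmu-miR-468-3p, among 353 other names detected on at least 6 arrays. Pearson's r was 0.998, 0.998, 0.997, 0.997 and 0.995. All 5 were detected on all 6 retina arrays and on 0 sclera arrays, so that the 12 points share the floor in the sclera. Over the 6 retina arrays alone r was 0.985 to 0.997. These names were higher in the myopic retina by 1.98 to 2.08, which their choice by likeness to miR-101a-5p on the same arrays largely fixes. As an example, mmu-miR-467c-5p had total gene signals of 129, 27.8 and 8.45 in the control retina and 210.0, 314 and 132 in the myopic retina, the same order of arrays as miR-101a-5p. For the 4 others, control retina 1 was brighter than myopic retina 3, so that their control and myopic signals overlapped.

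Both 3p names had other neighbours. The names most like miR-101a-3p were mmu-miR-376a-3p, mmu-miR-136-5p, mmu-miR-33-5p, mmu-miR-370-3p and mmu-miR-362-3p, with r from 0.953 to 0.966. Those most like miR-101b-3p were mmu-miR-362-3p, mmu-miR-376a-3p, mmu-miR-106b-5p, mmu-miR-324-5p and mmu-miR-7a-5p, with r from 0.965 to 0.982. MiR-101a-3p and miR-101b-3p had an r of 0.940 with each other, while r was 0.553 between both arms of miR-101a, which ranked the 3p arm 147 among the 353 names for the 5p arm.

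**Figure D3:**
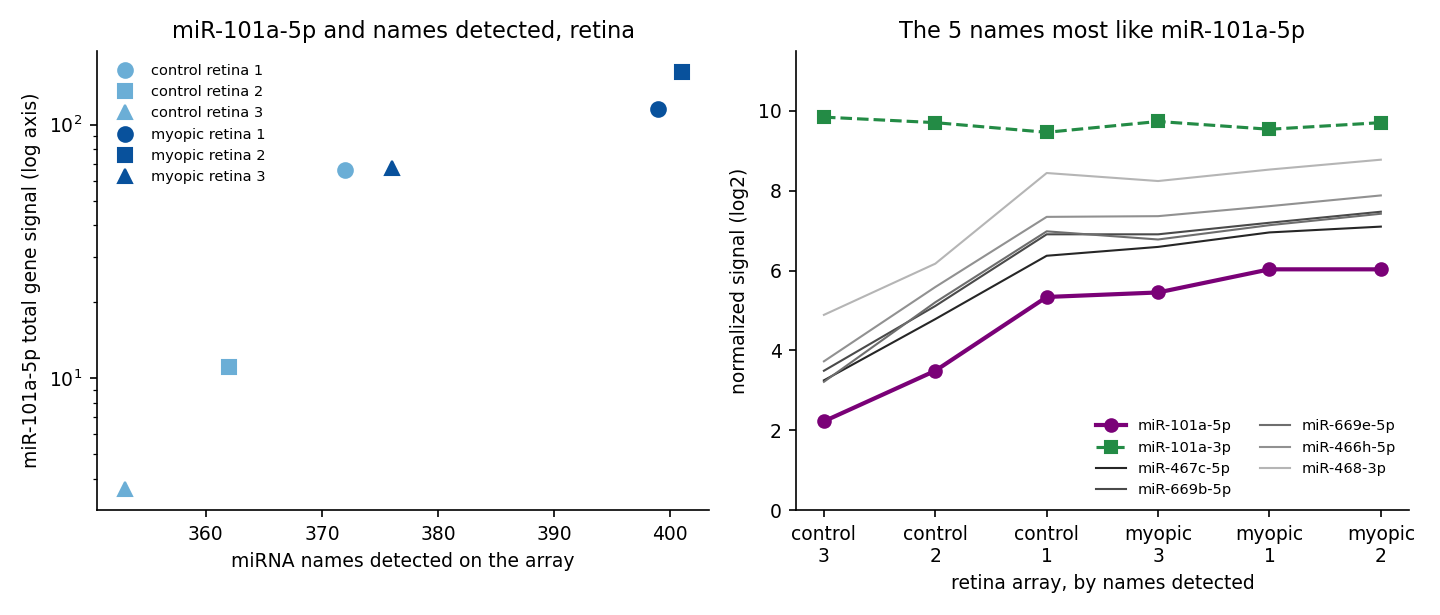
Left, miR-101a-5p total gene signal (log axis) against the number of miRNA names detected on each of the 6 retina arrays. Right, normalized log2 signal on the same arrays, ordered by names detected, for miR-101a-5p, its guide arm miR-101a-3p and the 5 names most like miR-101a-5p, which share its low values on control retina 3 and 2 while the guide arm stays between 9.46 and 9.84.

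Detection in the retina only was not particular to miR-101a-5p. It was shared by 46 names on all 6 retina arrays and no sclera array. Their median difference between the myopic and the control retina was -0.17 (range -1.43 to 2.15), where it was -0.12 over all 443 names. A rise of at least 1 on the log2 scale was found for 15 of the 46 (32.6%) and for 74 of the 443 (16.7%). MiR-101a-5p had the highest value of the 46, which is no finding because it was chosen on this difference.

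Hairpins with both arms on the array were used to set miR-101a beside others of its kind. Of 157 such hairpins, 55 had an arm detected on all 6 sclera arrays and the other arm on none, and miR-101a was among these. The arm not detected in the sclera, called silent here, was also undetected on every retina array for 38 of the 55, and was detected on at least 1 retina array for 17. Among the 17, the silent arm was on more myopic than control retina arrays for 10, on fewer for 2 and on as many for 5, the last including miR-101a. Over all 418 names on at least 1 retina array, myopic arrays with detection outnumbered control arrays for 72, were outnumbered for 9 and equalled them for 337. A name on every retina array is bound to be on as many. Of the 418 names, 246 were on all 12 arrays, but only 4 of the 17 silent arms were on all 6 retina arrays. Both sets of counts are therefore not alike, and no trait of the silent arms is read from them.

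The silent arms of the 17 had a median retina difference of 0.22 (range -1.70 to 4.38), with 9 higher and 8 lower in the myopic retina, of which 7 were higher and 4 were lower by at least 1. Over all 443 names these were 74 (16.7%) and 42 (9.48%). Their partner arms had a median of -0.15 (range -1.14 to 2.47), and 2 were higher and 1 was lower by at least 1. MiR-101a-5p ranked 7 by size among the silent arms, which is a description, since it was chosen on this value. Arms detected on some retina arrays owe part of their size to the floor.

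**Figure D4:**
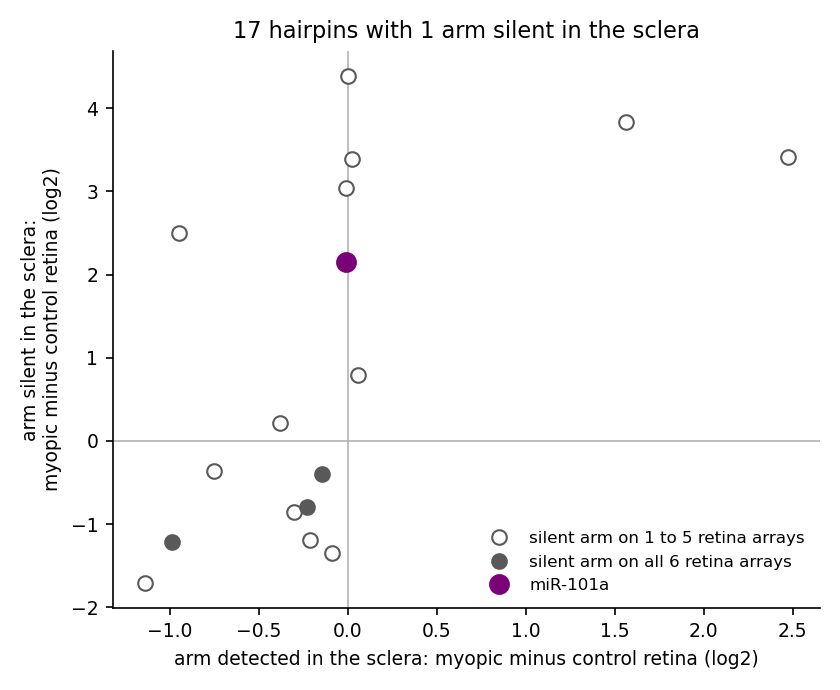
Myopic minus control retina difference (log2) of the arm not detected in the sclera against that of its partner arm, for the 17 hairpins with the first arm on at least 1 retina array. Filled points have that arm on all 6 retina arrays, and miR-101a, at -0.01 and 2.15, is in color.

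In the sclera the members had not been selected, and they were tested. Limma called 0 of 443 miRNAs (0%) between the myopic and the control sclera, with 13 at an unadjusted p-value under 0.05. The fit without moderation called 0 as well, and the fit with array weights called 1. MiR-101a-5p was not detected in either group, so that no difference can be given. MiR-101a-3p was higher in the myopic sclera in 3 of 3 pairs, by 0.10, 0.06 and 1.00, but in 1 of 3 without normalization (-0.13, -0.49 and 1.65), with a fitted difference of 0.39 (standard error 0.28) and an adjusted p of 1 from limma. MiR-101b-3p was higher in 3 of 3 pairs, by 0.01, 0.12 and 1.34, but in 2 of 3 with 75th percentile scaling, where pool 1 gave -0.01, and in 1 of 3 without normalization (-0.18, -0.50 and 2.23). Its fitted difference was 0.49 (standard error 0.32) with an adjusted p of 1 from limma.

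Both differences came from the pair with the dim array. Without control sclera 3 they were 0.01 for miR-101a-3p and 0.06 for miR-101b-3p. Within the arrays, miR-101a-3p minus miR-101b-3p gave 2.95, 2.95 and 3.10 for control sclera and 3.04, 2.89 and 2.76 for myopic sclera, a change of -0.10 (two-sided exact permutation p = 0.40, where 3 arrays against 3 cannot go below 0.10).

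The tissues were then compared, in the control eyes and in the myopic eyes. These comparisons use the retina arrays on which miR-101a-5p was selected. In the control eyes limma called 224 of 443 miRNAs (50.6%) between retina and sclera, of which 122 (27.5%) were higher in the retina. In the myopic eyes it called 261 (58.9%), of which 144 (32.5%) were higher in the retina. MiR-101b-3p was called higher in the retina in the control eyes, and neither 3p name was called in the myopic eyes.

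For miR-101a-5p no test between the tissues is given, since it was selected on these retina values and all its sclera values are the floor. For a bound, the sclera arrays were given the lowest detected normalized value of each array. MiR-101a-5p was then at least 3.93-fold higher in the myopic retina than in the myopic sclera. In the control eyes this bound came out under 1, and no fold is given. With arrays scaled by the 75th percentile the bounds were 16.9-fold in the myopic and 2.22-fold in the control eyes. With normexp background correction, whose offset compresses low signals, the fitted log2 differences were 0.37 and 0.15.

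MiR-101b-3p was higher in the control retina than in the control sclera by 1.41 (standard error 0.32) in 3 of 3 pairs, with an adjusted p of 0.00346 from limma. The difference was 2.22 after scaling to the 75th percentile, 3.33 with quantile normalization within each tissue and 3.25 without normalization, and with normexp it was 0.44 and not called. Without control sclera 3 the difference was 0.98, under the fold threshold, with an adjusted p-value of 5.12e-04 from limma (range over all alternatives 1.21e-06 to 0.0505). In the myopic eyes it was 0.62 (standard error 0.32) with an adjusted p of 0.108 from limma, also in 3 of 3 pairs, and it was called at 1.66 with 75th percentile scaling. The 4 groups share a spread, and without control sclera 3, which is not in this comparison, the difference was again 0.62 with an adjusted p of 0.00310 from limma (range over all alternatives 8.42e-05 to 0.201).

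MiR-101a-3p was higher in the retina in 3 of 3 pairs of both comparisons, by 0.72 in the control eyes (standard error 0.28) with an adjusted p of 0.05004 from limma. In the myopic eyes it was higher by 0.32 (standard error 0.28) with an adjusted p of 0.321 from limma, and neither difference was called. Without control sclera 3 the myopic-eye difference was again 0.32, under the fold threshold, with an adjusted p of 0.0386 from limma (range over all alternatives 8.93e-04 to 0.527). The control-eye difference was 0.34 without this array. These sizes depend on the scaling, since quantile normalization over all arrays takes out the brighter signal of the retina. The median difference over all 443 miRNAs between the control tissues was 0.30 as normalized here, 0.79 after scaling to the 75th percentile, 1.76 with quantile normalization within each tissue and 1.58 without normalization. The difference of miR-101a-3p under these settings was 0.72, 0.96, 2.01 and 2.00, and it was called under the last 2. In bulk tissue, fewer cells of a type and less RNA per cell cannot be told apart.

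**Figure D5:**
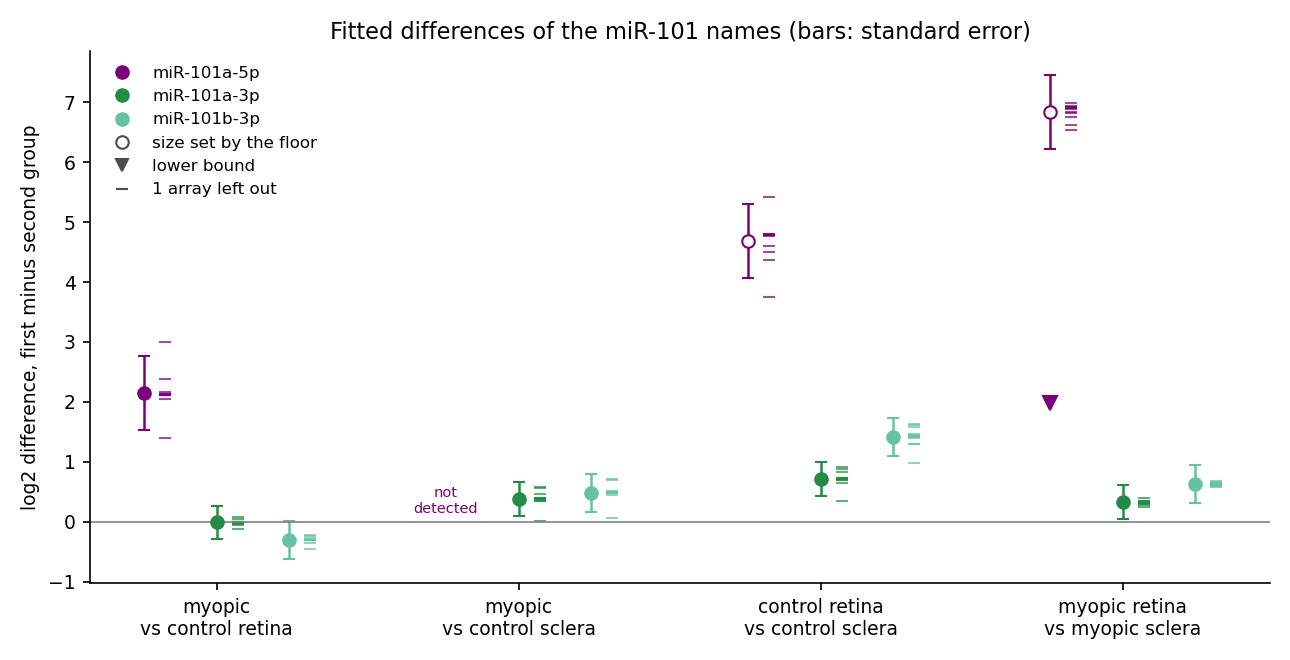
Fitted log2 difference with standard error of the 3 miR-101 names in the 4 comparisons, with dashes for the fits without 1 array each. Open circles for miR-101a-5p have a size set by the floor, the triangle is its lower bound of 1.98 on the log2 scale in the myopic eyes, and the 3p names lie between -0.30 and 0.49 in both comparisons of myopic with control eyes.

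The 3p arms were also compared within arrays between the tissues. MiR-101a-3p minus miR-101b-3p was 2.41, 2.16 and 2.34 for control retina, all below the values of the control sclera. The change was -0.69 in the control eyes and -0.30 in the myopic eyes (two-sided exact permutation p = 0.10 in both, the smallest that 3 arrays against 3 can give). These sizes depend on the scaling, with -1.26 and -1.11 both after scaling to the 75th percentile and without normalization, and -1.33 and -0.95 with quantile normalization within each tissue. With normexp background correction the change reversed to 0.09 and 0.04.

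The labelled tissues were checked with marker miRNAs. All 6 retinal neuron miRNAs (miR-124-3p, both arms of miR-9, and miR-183-5p, miR-96-5p and miR-182-5p) were called higher in the retina in the control and in the myopic eyes, with median differences of 4.04 and 4.07 beside 0.30 and 0.36 over all names. All 4 fibroblast and smooth muscle miRNAs (both arms of miR-199a, miR-214-3p and miR-143-3p) and all 4 skeletal muscle miRNAs were called lower in both, with control-eye medians of -7.84 and -4.27, and mmu-miR-214-3p was not detected on any retina array. Of the 2 pigment epithelium miRNAs, 1 was called higher in the retina in both comparisons, with a control-eye median of 0.80. Of the 3 erythroid miRNAs, 2 were matched to the array by name, and 1 of them was called lower in both, with a control-eye median of -0.35. Mmu-miR-486-5p had no match under this name, and whether it has probes under another name was not checked.

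The neuronal miRNAs were detected on every sclera array, so that the sclera pools held them as well. Summed over the list, control sclera had normalized signals of 14927, 15277 and 2676 and myopic sclera had 11360, 5946 and 12587, against 185183 to 195963 in the retina. Mmu-miR-124-3p was the brightest of the list on all arrays except myopic sclera 3, where mmu-miR-96-5p was. Control sclera 3, with the lowest sum, was also the array with the lowest miR-101a-3p and miR-101b-3p. On this array the fibroblast list, at 17072, was within the range of the other sclera arrays (16460 to 18085), and the pigment epithelium list, at 13794, was above theirs (5135 to 8366), with mmu-miR-204-5p the brightest. The part of retinal RNA in the 3p signals of the sclera was not tested.

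Normalized retina sums of the fibroblast list were 58.7, 117 and 293 on the control and 51.2, 53.4 and 73.9 on the myopic arrays. Those of the skeletal muscle list were 149, 277 and 401 on the control and 188, 212 and 200 on the myopic arrays. The control retina arrays with more of these signals were those with less miR-101a-5p. Without normalization the fibroblast sums were 103, 127 and 361 on the control and 106, 154 and 113 on the myopic arrays. The skeletal muscle sums were then 251, 315 and 498 on the control and 355, 534 and 287 on the myopic arrays. The highest of these was on myopic retina 2, which also had the most miR-101a-5p. The part of these marker signals in the miR-101a-5p difference was not tested. The erythroid list had normalized sums of 174, 227 and 283 in the control and 220, 294 and 275 in the myopic retina. Its normalized sums were 870.0 to 1161 in the sclera, with mmu-miR-451 the brightest on all arrays. None of the listed marker miRNAs was called between myopic and control eyes in either tissue. Mmu-miR-145-5p, the 1 miRNA called in the retina (-3.85), is known from smooth muscle and shares a cluster with miR-143, but is not on the fibroblast and smooth muscle list.

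Mmu-miR-144-3p, an erythroid miRNA with bases 2 to 7 of miR-101a-3p, was near the limit of detection. It was detected on 2 of 3 control retina, 3 of 3 myopic retina, 1 of 3 control sclera and 2 of 3 myopic sclera arrays, with signals between 7.24 and 17.7 where detected. None of its tested differences was called, the largest being 2.40 in the sclera (standard error 2.09, adjusted p = 1 from limma).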

How the data were processed

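RNA of 12 pools was measured on 1-color Agilent miRNA arrays. The files deposited by the authors hold spot and gene intensity values without normalization between arrays, made with Feature Extraction 11.0.1.1 per the file headers. The authors also deposited log2 values, with Partek 6.6 named in the submitters' processing notes. Each array has 13920 miRNA spots. Sequences were taken from RefSeq (GRCm38.p6).

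Total gene signals were floored at 0.5, quantile normalized over 696 names and log2-transformed, and 253 names detected on no array were left out. The floor treats a miRNA just under detection like an absent one. The 4 groups were fitted together (8 residual degrees of freedom) by lmFit and eBayes of limma 3.58.1, run in R 4.3.3, with Benjamini-Hochberg adjustment over 443 miRNAs. Exact permutation tests and figures used Python 3.11.15, scipy 1.17.1, numpy 2.4.6, pandas 2.3.3 and matplotlib 3.10.9. The fit was tested on simulated data, in which 40 of 443 miRNAs changed by 2 on the log2 scale between the sclera groups. Over 30 draws it called 67.5% of these 40 on average, with a mean of 1.2 false calls, so that it misses part of such changes.

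Named beside the 3 members are the 5 miRNAs with the highest Pearson correlation to each, those that share seed bases, and marker lists. The members and lists were chosen with earlier results of these data known.

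The sample labels name a mouse, with the same identifier for both eyes and both tissues, whereas the methods describe pools of 3 eyes. Same-numbered samples were therefore taken as paired in the differences by pool and in the fit with a replicate block. The fit reported here and the permutation tests do not use the pairs. Over 246 miRNAs detected on all arrays, the deviations of the paired control and myopic arrays from their group means correlated at 0.38, -0.46 and 0.59 in the retina and at -0.14, -0.16 and -0.00 in the sclera. Alternatives covered scaling, floor, source of the values, background correction, filters, samples in the fit, array weights, moderation, the replicate block and leaving out each array.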

Additional observations from a re-analysis of the deposited data

Results flagged for a closer look

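The change of mmu-miR-101b-3p under form deprivation had opposite signs in the tissues. It was lower in the myopic retina in 3 of 3 pairs (-0.02, -0.56 and -0.33) and higher in the myopic sclera in 3 of 3 pairs (0.01, 0.12 and 1.34), and the retina change minus the sclera change was -0.79 on the log2 scale. The difference was not tested, because the retina comparison chose the family. With 75th percentile scaling the pairs were 0.15, 0.03 and -0.17 in the retina and -0.01, 0.12 and 1.57 in the sclera. Neither tissue then had the same sign in all pairs. The fitted changes with this scaling were 0.00157 in the retina and 0.56 in the sclera, without opposite signs. Leaving out 1 array, control sclera 3, gave fitted changes of -0.30 in the retina and 0.06 in the sclera, in place of -0.30 and 0.49.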

How the results depend on the processing

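The 6 tested differences of miR-101a-3p and miR-101b-3p gave 162 values over the alternatives, of which 152 kept their direction and their side of the threshold, 3 fell under it, 7 passed it and 0 changed direction. MiR-101a-5p is not among them, as it was undetected on every sclera array, and it has no value in the sclera comparison. In the retina comparison, limma called 0 miRNAs with a floor set to the lowest signal detected, with processed spot signals, with normexp background correction, with only the 2 groups in the fit and with all probes summed (chosen after seeing the data), 2 with the authors' log2 values and 146 with array weights, whose estimation gave convergence warnings, beside 1 as reported. Leaving out 1 array each gave 1 to 122 in the retina (122 without control retina 1) and 0 to 1 in the sclera, where array weights gave 1. Normexp left 70 calls between the control tissues and 78 between the myopic ones. With normexp the difference of miR-101a-5p was 0.22 between the retinas, 0.15 between the control tissues and 0.37 between the myopic tissues, and that of miR-101b-3p between the control tissues 0.44. MiR-101b-3p between the retinas was 0.00157 (75th percentile), 0.11 (no normalization) and -0.50 (array weights). Between the control tissues it was 1.41 and missed only the p threshold with only the 2 groups (adjusted p 0.0505 from limma, range 1.21e-06 to 0.0505), and 0.98 to 1.63 with 1 array left out, lowest without control sclera 3. Between the myopic tissues it passed the threshold at 1.66 (75th percentile), 2.50 (quantile within tissue) and 2.85 (no normalization). MiR-101a-3p passed it at 2.01 (quantile within tissue) and 2.00 (no normalization) between the control and at 1.55 and 1.73 between the myopic tissues. Quantile normalization within tissue and no normalization keep the brighter signal of the retina arrays in these differences. Within arrays, normexp moved 5p minus 3p from 2.16 to 0.24 between the retinas and from 6.51 to 0.11 between the myopic tissues, and reversed it from 3.97 to -0.37 between the control tissues, with the sclera values of 5p at the floor outside normexp. It moved miR-101a-3p minus miR-101b-3p from 0.29 to 0.11 between the retinas and reversed it to 0.15 between the scleras, 0.0873 between the control and 0.0383 between the myopic tissues, and between the retinas this was -0.0308 with 75th percentile scaling and -0.0308 without normalization. Apart from this, the cause was not tested. With the replicate number as a block (paired samples), 1, 0, 224 and 262 miRNAs were called in the retina, sclera, control tissue and myopic tissue comparisons, and miR-101a-3p between the control tissues had an adjusted p of 0.0642 from limma. Signals near background limit miR-101a-5p, detected by 1 of 4 probes on control retina 3.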
